A study of Mus musculus with 9 samples.

Results

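Mouse bone marrow cells carrying the leukaemia fusion ETV6-NCOA2 were compared directly with cells carrying KAT6A-NCOA2, gene by gene. The comparison covers every gene with a normalized count of at least 10 in at least 3 of 9 libraries, which is 13750 of the 17266 genes in the deposited table. It rests on 6 of the 9 libraries, 3 for each fusion, and the 3 empty vector libraries are given for reference and enter the estimate of the spread. All groups share the same starting material: lineage-negative cells, isolated with magnetic beads from the marrow of untreated 6-week-old female C57B/6 mice. The MigR1-IRES-GFP retrovirus carried either fusion or nothing, the cells grew for 5 days in RPMI with SCF, IL-3 and IL-6, and polyadenylated RNA was sequenced in bulk from sorted GFP+ cells. The promoter of the retrovirus drives the fusion in every infected cell, at a level that the labels do not give. Whether replicates came from separate mice, infections or cultures is not stated, so the p-values reflect only how these libraries vary, and that variation may be technical. The comparison asks what differs between fusions that share NCOA2 and differ in the partner.

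ETV6 is a transcriptional repressor of the ETS family that blood stem cells need, and KAT6A is a histone acetyltransferase that maintains stem cells and Hox gene expression. NCOA2 is a coactivator that nuclear receptors bind, and it brings the acetyltransferases CBP and p300 to their targets. Fusions of either partner to NCOA2 are found in acute leukaemia, KAT6A-NCOA2 in myeloid and ETV6-NCOA2 in mixed T and myeloid disease. In culture with IL-3, IL-6 and SCF, marrow progenitors mature toward mast cells, basophils, granulocytes and macrophages while the immature cells are used up.

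Higher with ETV6-NCOA2 than with KAT6A-NCOA2 were 7 of 13 genes of neutrophil primary granules, 12 of 33 of the interferon response and 7 of 25 of blood stem and progenitor cells. These counts are from a fit that does not pair the replicates, and few genes were higher with KAT6A-NCOA2 in it. Pairing by replicate number gave 732 toward ETV6-NCOA2 and 251 toward KAT6A-NCOA2 over 9 libraries, and 1109 and 944 over the 6 fusion libraries. Without pairing, past a limma adjusted p of 0.05 were 425 genes (3.09% of those tested), of which 391 (2.84%) were higher with ETV6-NCOA2 and 34 (0.247%) higher with KAT6A-NCOA2. The differences toward ETV6-NCOA2 were larger, with a median log2 difference of 1.14 over the 391 genes, against a median size of 0.41 over the 34. At least a 2-fold difference was seen in 223 of the 391 and in 2 of the 34, Slc6a4 and Myl9. Over all tested genes the median log2 difference was -0.006. The 3 libraries of one fusion all lay above the 3 of the other in 1983 genes toward ETV6-NCOA2 (14.4%) and in 1754 toward KAT6A-NCOA2 (12.8%), so that the 2 directions were nearly even by this count and uneven among the genes past the test. Counts of list members below can be set beside these shares of all tested genes. In bulk RNA, fewer cells of a type and less RNA per cell cannot be told apart, and this holds for every gene below.

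**Figure D1:**
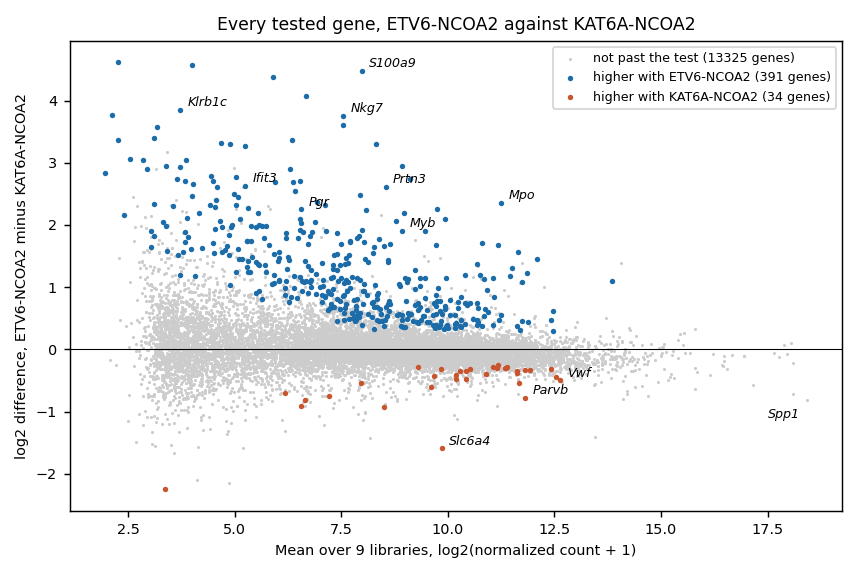
Each point is 1 of 13750 genes: its mean over 9 libraries on the x axis, as log2(normalized count + 1), and its log2 difference between ETV6-NCOA2 and KAT6A-NCOA2 on the y axis. The 391 blue genes, past the test and higher with ETV6-NCOA2, reach differences above 4, and the 34 orange genes lie mostly between -1 and 0 at medium to high means.

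With the replicate number as a block, which compares each ETV6-NCOA2 library with the KAT6A-NCOA2 library of the same number, 732 genes (5.32%) were higher with ETV6-NCOA2 and 251 (1.83%) higher with KAT6A-NCOA2. All 425 genes of the fit without a block were among them. The labels do not say that libraries of the same number belong together, so every call with the block rests on an assumed pairing. In 226 of the 391 genes higher with ETV6-NCOA2 the empty vector mean was above both fusions, in 144 it lay between them, and in 21 it was below both. Of the 34 genes higher with KAT6A-NCOA2, the empty vector mean was below both fusions in 23, between them in 10 and above both in 1. Over all 13750 genes it was above both in 5182, between in 2860 and below both in 5708. Both fusions share the empty vector libraries, so these positions are a description without a test.

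Values below are normalized counts of replicates 1, 2 and 3, ETV6-NCOA2 first unless stated. Where brackets hold an "at most", it is the highest adjusted p among the 9 fits that leave out 1 library. The recovered reads came to between 17.1 and 20.4 M per library. Replicate 1 of each fusion stood apart from the other 2 on the third principal component (9.19% of the variance), at 26.2 with ETV6-NCOA2 and 15.3 with KAT6A-NCOA2, where the other 7 libraries lay between -15.1 and 3.68. On the first component (51.2%) replicate 1 was also the lowest of its group, at -13.4 against 2.28 and 7.7 with ETV6-NCOA2. With KAT6A-NCOA2 it was at 20.7 against 40.2 and 43. Among markers of the starting cells, Kit, the SCF receptor, stood at 1342, 1259 and 1089.9 normalized counts with ETV6-NCOA2 and 1000.2, 591 and 617 with KAT6A-NCOA2, and Cd34 at 5745, 5449 and 3915 against 5158, 3789 and 3366. Flt3, a receptor of early progenitors, was low in all 9 libraries, between 20.6 and 54.2, and Ly6a, the Sca-1 gene, stood at 4077, 1881 and 2082 against 1480.0, 1756 and 1496. None of these 4 markers was past the test (limma adjusted p from 0.059 for Kit to 0.801 for Flt3). Of the mouse genes behind the fusions, Etv6 was higher with ETV6-NCOA2, at 2152, 2027 and 2009 against 1594, 1319 and 1384 (log2 difference 0.53 ± 0.10 SE, limma adjusted p = 0.0189, at most 0.0981). With empty vector Etv6 stood at 2398, 1855 and 2033, overlapping ETV6-NCOA2 and above every KAT6A-NCOA2 library. Kat6a and Ncoa2 had log2 differences of 0.01 and 0.04 (limma adjusted p = 0.974 and 0.789). These levels are no check of the labels, since it is unknown if reads from a fusion transcript were assigned to the mouse gene.

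Primary granule proteases were several-fold higher with ETV6-NCOA2. Of 13 tested genes of neutrophil primary granules, 7 were past the test, all higher with ETV6-NCOA2, and the list's median log2 difference was 1.83. Mpo, the myeloperoxidase that makes hypochlorous acid (chromosome 11, 87793581 to 87804413, GRCm38), stood at 2962, 3305 and 2490.3 normalized counts in ETV6-NCOA2 replicates 1, 2 and 3 and at 791, 498 and 463 with KAT6A-NCOA2 (log2 difference 2.35 ± 0.19 SE, limma adjusted p = 0.000283, at most 0.00313). Elane, the neutrophil elastase (chromosome 10, 79886247 to 79888215), stood at 966, 797 and 554 against 169, 66.2 and 81.8 (log2 difference 2.94 ± 0.32 SE, limma adjusted p = 0.00121, at most 0.01). Its neighbour Prtn3, proteinase 3 (chromosome 10, 79874476 to 79883174), stood at 654, 549 and 475 against 107, 71.5 and 94.7 (log2 difference 2.61 ± 0.20 SE, limma adjusted p = 0.000182, at most 0.00234). In each of these genes the lowest ETV6-NCOA2 library was above the highest KAT6A-NCOA2 library by more than 3-fold, and the empty vector libraries were higher than both, at 10077, 7575 and 8907 for Mpo. Ctsg, cathepsin G, stood at 1525, 1081 and 779 against 387, 227 and 187 (log2 difference 2.09 ± 0.29 SE, limma adjusted p = 0.00472, at most 0.0306). Ms4a3, a surface protein of granulocyte and monocyte progenitors, stood at 354, 361 and 247 against 79.5, 38.9 and 56.1 (log2 difference 2.48 ± 0.28 SE, limma adjusted p = 0.00138, at most 0.0126). Gfi1, the repressor that granulocyte precursors need, and Serpinb1a, an inhibitor of these proteases, had log2 differences of 1.83 and 1.45 (limma adjusted p = 0.00498 and 0.0195, the latter up to 0.0981 without 1 library). Cebpe, a factor of granule formation, stood at 32.4, 40.2 and 20.6 against 3.06, 15.8 and 7.01 and missed the threshold (limma adjusted p = 0.051, and 0.0325 with the replicate block).

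The other 5 granule genes did not follow. Ctsc, Srgn, Lyz2, Lyz1 and Igsf6, which macrophages also express, had log2 differences between -0.41 and -0.01. Lyz2, lysozyme, stood at 120398, 107252 and 123597 with ETV6-NCOA2 and 143884, 112095 and 123465 with KAT6A-NCOA2, groups that overlap. Igsf6 was past the test with the replicate block in the opposite direction, higher with KAT6A-NCOA2 (limma adjusted p = 0.0457, and 0.303 without the block). Lyz2 holds most of the list's summed value, which did not separate the fusions, at 152210 to 166620 with ETV6-NCOA2 and 151640 to 183340 with KAT6A-NCOA2. The mean log2 level of the 13 genes did, at 10.3 to 10.6 and 9.04 to 9.42.

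The promoters of the neighbours Elane and Prtn3 are shown because both genes differed and both carry a copy of AGGAAGT, a core that ETS factors can bind, near the start site. The sequences are RefSeq's for GRCm38.p6, from 250 bases before the start to 50 after it, on the plus strand, with that motif in capitals and the rest in lower case. RefSeq's starts differ from the GENCODE gene starts above.
Elane, chr10:79886062-79886361: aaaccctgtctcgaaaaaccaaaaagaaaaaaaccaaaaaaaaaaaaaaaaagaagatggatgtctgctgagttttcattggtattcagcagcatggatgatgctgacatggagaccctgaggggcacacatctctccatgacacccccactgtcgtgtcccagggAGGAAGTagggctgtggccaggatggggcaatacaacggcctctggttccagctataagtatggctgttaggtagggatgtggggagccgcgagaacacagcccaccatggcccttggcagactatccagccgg
Prtn3, chr10:79879417-79879716: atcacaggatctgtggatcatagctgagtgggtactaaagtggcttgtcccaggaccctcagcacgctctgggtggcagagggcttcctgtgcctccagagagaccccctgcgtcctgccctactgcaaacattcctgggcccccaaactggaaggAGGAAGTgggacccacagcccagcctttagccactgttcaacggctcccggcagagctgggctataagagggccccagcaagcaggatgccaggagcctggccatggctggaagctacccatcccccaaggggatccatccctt
The motif begins 84 bases before the start of Elane and 94 bases before that of Prtn3. Searched on both strands, AGGAAGT was found in 7 of the 11 granule genes with a promoter in the RefSeq table (63.6%), in 11.2% of the 10059 tested genes with one and in 10.7% of all 27025 genes there. It was in 4 of the 6 granule genes past the test (Ctsg, Elane, Mpo and Prtn3) and in 3 of the 5 that were not (Ctsc, Lyz1 and Lyz2). Among all genes higher with ETV6-NCOA2 it was in 41 of 293 promoters (14%), and among those higher with KAT6A-NCOA2 in 2 of 27 (7.41%). Motifs of AP-1, GATA, E-box and C/EBP factors were searched in the same gene sets. The GATA motif AGATAA was in 38 of 293 promoters of genes higher with ETV6-NCOA2 (13%), against 8.11% of tested genes. Among genes higher with KAT6A-NCOA2 it was in 5 of 27 (18.5%). The C/EBP motif TTGCNNAA was in 3 of the 11 granule genes (27.3%), against 10.2% of tested genes. A match says only that these letters are in the window.

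Late neutrophil genes were split. Of 16 tested, 4 were higher with ETV6-NCOA2 and none was past the test toward KAT6A-NCOA2, while the median was -0.33 and the mean log2 level, at 8.85 to 9.33 with ETV6-NCOA2 and 8.25 to 8.35 with KAT6A-NCOA2, leaned the other way. With the filter at 100 the median was 0.13. S100a9 and S100a8, the subunits of calprotectin, lie next to each other on chromosome 3. S100a9 stood at 1747, 845 and 617 normalized counts with ETV6-NCOA2 and 81.5, 33.6 and 28.1 with KAT6A-NCOA2 (log2 difference 4.48 ± 0.43 SE, limma adjusted p = 0.00062, at most 0.00578). S100a8 stood at 1511, 833 and 549 against 99.8, 75.7 and 93.5 (log2 difference 3.30 ± 0.30 SE, limma adjusted p = 0.000518, at most 0.00559). In both genes ETV6-NCOA2 was above the empty vector libraries too, which held 502, 293 and 389 for S100a9, and replicate 1 was the highest ETV6-NCOA2 library. Ngp, a granule protein, stood at 1549.7, 289 and 200.5 against 31.6, 38.9 and 37.4 (log2 difference 3.61 ± 0.57 SE, limma adjusted p = 0.00843, at most 0.0411), and Lcn2, a siderophore-binding protein, at 544, 166 and 106 against 57, 33.6 and 38.6 (log2 difference 2.31 ± 0.50 SE, limma adjusted p = 0.0323, at most 0.141). Most of the Ngp and Lcn2 reads with ETV6-NCOA2 came from replicate 1. With the block 5 genes were higher with ETV6-NCOA2 and 3 higher with KAT6A-NCOA2, the latter being Chil3, Anxa1 and Ltb4r1, chosen after their values were seen. Chil3, a chitinase-like protein that macrophages also make, stood at 53554, 33379.8 and 43862 against 87702, 54422 and 62063 (limma adjusted p = 0.0294 with the block and 0.207 without it).

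Mast cell and basophil genes leaned toward ETV6-NCOA2. Of 23 tested, 20 had a higher mean with ETV6-NCOA2, 4 were past the test in that direction and none in the other, and the median log2 difference was 0.98. Tph1, the first enzyme of serotonin synthesis, stood at 2916, 2685 and 2006 normalized counts with ETV6-NCOA2 and 1159, 655 and 584 with KAT6A-NCOA2 (log2 difference 1.71 ± 0.27 SE, limma adjusted p = 0.0078, at most 0.0431). Slc18a2, the transporter that loads serotonin and histamine into granules, stood at 2764, 2326 and 2106 against 1259, 1092 and 924 (log2 difference 1.14 ± 0.20 SE, limma adjusted p = 0.0119, at most 0.0657). Gata2, a factor of progenitors and mast cells, stood at 4539, 3945 and 3336 against 2371, 1413 and 1385 (log2 difference 1.23 ± 0.26 SE, limma adjusted p = 0.0322, at most 0.15), and the cytokine gene Il6 at 477, 429 and 337 against 209, 110.4 and 97 (log2 difference 1.64 ± 0.38 SE, limma adjusted p = 0.0455, at most 0.189). With the block 12 were higher with ETV6-NCOA2, among them Cpa3, the mast cell carboxypeptidase, at 21787, 19064 and 15049 against 13501, 5593 and 4621 (limma adjusted p = 0.00275 with the block and 0.0672 without). KAT6A-NCOA2 replicate 1 was the highest of its group in each of these 5 genes, and without it 12 of the 23 were past the test. The count was 1 without ETV6-NCOA2 replicate 1 or 2 or without KAT6A-NCOA2 replicate 2 or 3, and 6, 8 and 2 without empty vector replicates 1, 2 and 3. The list's summed value was 38477 to 57919 with ETV6-NCOA2 and 19058 to 38900 with KAT6A-NCOA2. In the empty vector libraries the sum was higher than with either fusion, at 161330, 86245 and 107290. The empty vector mean was above both fusions in 20 of the 23 genes. Mcpt8, the basophil protease, stood at 1236, 530.1 and 293 against 900.4, 391 and 257, groups that overlap (limma adjusted p = 0.777).

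Several transcription factors of blood progenitors were higher with ETV6-NCOA2. Of 25 tested stem and progenitor genes, 7 were past the test, all toward ETV6-NCOA2, and 20 had a higher mean there (median 0.42). Myb, which keeps progenitors dividing (chromosome 10, 21124935 to 21160984), stood at 561, 606 and 558 normalized counts with ETV6-NCOA2 and 162, 162 and 137 with KAT6A-NCOA2 (log2 difference 1.90 ± 0.14 SE, limma adjusted p = 0.000173, at most 0.00234). With empty vector Myb stood at 1418, 1020.5 and 1546, so that all 3 groups were separate. Erg, an ETS factor of stem cells, stood at 179.7, 173 and 154 against 67.2, 55.7 and 70.1 (log2 difference 1.38 ± 0.15 SE, limma adjusted p = 0.00113, at most 0.01). Mycn, the N-Myc gene, stood at 739.9, 726 and 643 against 502, 291 and 283 (log2 difference 1.02 ± 0.19 SE, limma adjusted p = 0.0163, at most 0.083), where KAT6A-NCOA2 replicate 1 was well above the other 2. Gata2, given above, is also in this list. Angpt1, a ligand of the receptor Tek, and the factors Hhex and Lmo2 had log2 differences of 0.87, 0.46 and 0.39 (limma adjusted p = 0.0234, 0.0143 and 0.0097), these 3 chosen after their values were seen. With the block 12 of the 25 were past the test, Kit among them (limma adjusted p = 0.00324). The count fell to 2 without KAT6A-NCOA2 replicate 2, to 3 without KAT6A-NCOA2 replicate 3 and to 4 without any 1 ETV6-NCOA2 library, and was 11 without empty vector replicate 1 or 2, 1 of them toward KAT6A-NCOA2. No gene among 10 of the HoxA cluster and its cofactors was past the limma test without the block and 1 was with it, where 3 had an unadjusted p below 0.05 (18.9% of all tested genes) and edgeR (2.78%), limma-voom (2.07%) and DESeq2 (5.77%) called 0. Their median was 0.14. Hoxa9 stood at 77.3, 70.8 and 54.5 against 68.2, 66.2 and 31.6, groups that overlap.

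**Figure D2:**
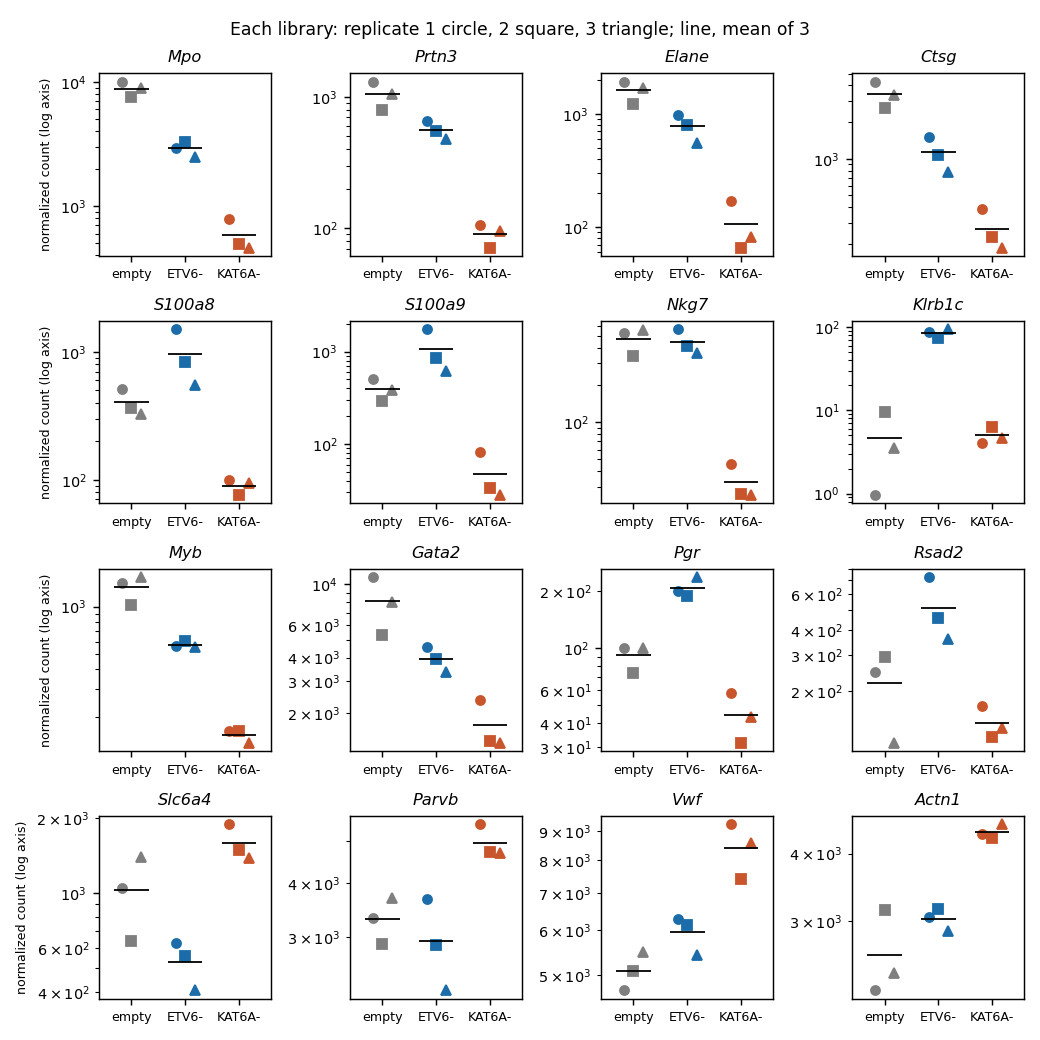
Normalized counts of 16 genes in each of 9 libraries, on a log axis that differs between panels. Circles, squares and triangles are replicates 1, 2 and 3, the line is the mean of 3. In the upper 3 rows every ETV6-NCOA2 library lies above every KAT6A-NCOA2 library, and in the bottom row below it.

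Interferon response genes were all higher with ETV6-NCOA2 by their means. Of 33 tested, 33 had a higher mean there, 31 had no overlap between the fusions, and 12 were past the test, with a median log2 difference of 1.43. Of all tested genes, 14.4% had no overlap in that direction and 2.84% were past the test in it. Ifit3, which helps cells block viral RNA, stood at 179, 54.5 and 68.9 normalized counts with ETV6-NCOA2 and 13.2, 9.46 and 18.7 with KAT6A-NCOA2 (log2 difference 2.63 ± 0.59 SE, limma adjusted p = 0.0385, at most 0.159). Cxcl10, a chemokine that draws T cells, stood at 25.1, 41.1 and 37 against 6.11, 4.21 and 12.9 (log2 difference 2.12 ± 0.44 SE, limma adjusted p = 0.0279, at most 0.121). Cmpk2, a nucleotide kinase, stood at 278, 186 and 169 against 72.3, 36.8 and 61.9 (log2 difference 1.89 ± 0.31 SE, limma adjusted p = 0.00924, at most 0.0418), and Ifit2 at 865, 393 and 373 against 159.9, 110.4 and 132 (log2 difference 1.91 ± 0.36 SE, limma adjusted p = 0.0191, at most 0.0947). In Ifit2, Ifit3 and Cmpk2 the highest library was ETV6-NCOA2 replicate 1, and in Cxcl10 it was the lowest of its group. Rsad2, the antiviral enzyme viperin, Mx1, a GTPase against influenza virus, and Isg15, a ubiquitin-like modifier, had log2 differences of 1.83, 1.78 and 1.22 (limma adjusted p = 0.0186, 0.0402 and 0.0385), these 3 chosen after their values were seen. Irf7, the factor that amplifies interferon production, stood at 2728, 779 and 759 against 288, 372 and 385 and missed the threshold (limma adjusted p = 0.0987, and 0.0377 with the block). At the low end were Gbp2, Gbp7 and Isg20 with log2 differences of 0.14, 0.14 and 0.14.

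The empty vector libraries did not sit on 1 side of the fusions in this list. The mean log2 level of the 33 genes was 9.12, 8.27 and 8.38 in ETV6-NCOA2 replicates 1, 2 and 3, and 7.24, 7.38 and 7.44 with KAT6A-NCOA2. In the empty vector libraries it was 8.12, 8.21 and 7.18, so that replicates 1 and 2 were just below the lowest ETV6-NCOA2 library and replicate 3 was below every fusion library. With the block 21 of the 33 were past the test. The count of 12 became 4 without ETV6-NCOA2 replicate 1, where the median was 0.98, and 7 without ETV6-NCOA2 replicate 2 or 3. It became 4, 2 and 2 without KAT6A-NCOA2 replicates 1, 2 and 3, and 19 without empty vector replicate 2 or 3.

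The promoters of Ifit3 and Cxcl10 are shown for an element that interferon-activated factors bind, the interferon-stimulated response element, searched as GAAANNGAAA and given in capitals on either strand. They are RefSeq's for GRCm38.p6, each read in the direction of its gene, Ifit3 on the plus and Cxcl10 on the minus strand.
Ifit3, chr19:34583279-34583578: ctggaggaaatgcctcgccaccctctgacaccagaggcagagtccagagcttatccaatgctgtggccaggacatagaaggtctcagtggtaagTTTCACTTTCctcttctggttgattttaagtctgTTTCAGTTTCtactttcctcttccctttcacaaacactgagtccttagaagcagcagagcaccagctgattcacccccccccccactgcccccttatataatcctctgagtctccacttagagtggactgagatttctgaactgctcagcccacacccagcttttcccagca
Cxcl10, chr5:92348840-92349139: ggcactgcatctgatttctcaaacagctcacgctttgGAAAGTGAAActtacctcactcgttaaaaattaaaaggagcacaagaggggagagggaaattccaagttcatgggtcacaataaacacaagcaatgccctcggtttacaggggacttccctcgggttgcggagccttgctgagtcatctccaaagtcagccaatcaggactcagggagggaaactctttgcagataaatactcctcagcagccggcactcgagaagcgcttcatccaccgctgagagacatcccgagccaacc
The element begins 156 and 122 bases before the start of Ifit3, both on the strand opposite to the gene, and 213 bases before that of Cxcl10. It was in 15 of the 24 list members with a promoter in the table (62.5%), in 3.89% of the tested genes and in 3.99% of all genes there. Of the list members past the test 6 of 9 held it, and of the others 9 of 15. Among all genes past the test, 26 of 293 promoters of genes higher with ETV6-NCOA2 (8.87%) and 0 of 27 of those higher with KAT6A-NCOA2 held it, counts that include the list. No match was in the windows of Ifit2 and Cmpk2. This element was searched after the list's values were seen.

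**Figure D3:**
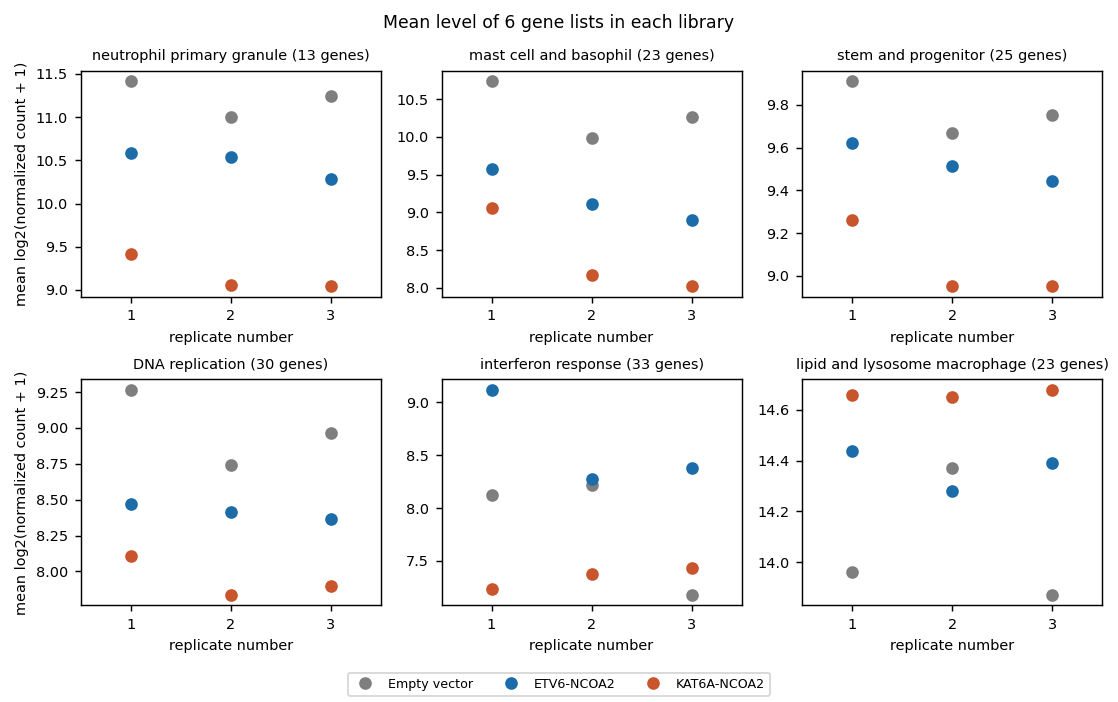
Mean log2(normalized count + 1) of 6 gene lists in each library, by replicate number, with grey for empty vector, blue for ETV6-NCOA2 and orange for KAT6A-NCOA2. Blue lies above orange at every number in 5 panels and below it in the lipid and lysosome panel, and in the interferon panel empty vector lies between the fusions at numbers 1 and 2 and below both at 3.

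Genes of DNA replication and mitosis had higher means with ETV6-NCOA2 by small amounts, and a minority passed the test. Of 30 replication genes, 29 had a higher mean there, 22 had no overlap in that direction and 9 were past the test. The median log2 difference of the 30 was 0.46. Of all tested genes, 14.4% had no overlap in that direction and 2.84% were past the test in it. Pole, a replicative DNA polymerase, stood at 308, 279 and 294 normalized counts with ETV6-NCOA2 and 162, 128 and 134 with KAT6A-NCOA2 (log2 difference 1.06 ± 0.17 SE, limma adjusted p = 0.0097, at most 0.0543). Uhrf1, which carries DNA methylation through replication, stood at 376, 330.1 and 312 against 232, 158 and 159 (log2 difference 0.91 ± 0.19 SE, limma adjusted p = 0.0303, at most 0.141). Mcm2, a subunit of the replicative helicase, and Mcm10, which helps activate it, had log2 differences of 0.78 and 0.86 (limma adjusted p = 0.0258 and 0.0372, at most 0.105 and 0.131). The empty vector libraries were above both fusions by their mean in 29 of the 30, at 1793, 1238 and 1365 for Mcm2 against 973, 898 and 906 with ETV6-NCOA2 and 670.2, 437 and 534 with KAT6A-NCOA2. Of 26 mitosis genes, 26 had a higher mean with ETV6-NCOA2, 20 had no overlap and 2 were past the test. These were Foxm1, a factor of mitotic genes (log2 difference 0.66 ± 0.15 SE, limma adjusted p = 0.0498, at most 0.183), and Racgap1, needed to divide the cell (log2 difference 0.59 ± 0.14 SE, limma adjusted p = 0.0475, at most 0.173). The median was 0.50. With the block 15 replication and 15 mitosis genes were past the test, and edgeR called 5 of the 30 and 0 of the 26. The counts of 9 and 2 both became 0 without KAT6A-NCOA2 replicate 2, and 1 and 0 without ETV6-NCOA2 replicate 1 or 2 or KAT6A-NCOA2 replicate 3. They were 1 and 1 without ETV6-NCOA2 replicate 3, 4 and 0 without empty vector replicate 3, 13 and 8 without empty vector replicate 1, and 14 and 14 without empty vector replicate 2.

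Of 23 genes of the Myc, D cyclin and CDK inhibitor list, 3 were past the test, all toward ETV6-NCOA2, and the median was 0.15. Ccnd2, cyclin D2, stood at 1419, 1379 and 1319 normalized counts with ETV6-NCOA2 and 998, 715 and 622 with KAT6A-NCOA2 (log2 difference 0.85 ± 0.18 SE, limma adjusted p = 0.0297, at most 0.131). Cdk6, its kinase, stood at 4482, 4235 and 4475 against 2829.6, 3225 and 3729 (log2 difference 0.44 ± 0.10 SE, limma adjusted p = 0.0499, at most 0.17), and the other was Mycn. Of 24 genes of the ATF4 amino acid response, the serine synthesis genes Phgdh (log2 difference 1.15 ± 0.17 SE, limma adjusted p = 0.00553, at most 0.0348) and Psat1 (log2 difference 0.49 ± 0.10 SE, limma adjusted p = 0.0224, at most 0.105) and Ddit4, an inhibitor of mTOR (log2 difference 0.55 ± 0.12 SE, limma adjusted p = 0.0326, at most 0.124), were higher with ETV6-NCOA2. Of 23 p53 targets, Eda2r and Btg2 were higher, by log2 differences of 0.76 and 0.39 (limma adjusted p = 0.0383 and 0.0179, at most 0.153 and 0.0834). The medians of the ATF4 and p53 lists were 0.20 and 0.09, and with the block 4 ATF4 genes were higher with ETV6-NCOA2 and 1 with KAT6A-NCOA2.

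Several genes that growth signals switch on within minutes were higher with ETV6-NCOA2. Of 31 immediate early and AP-1 genes, 6 were past the test, all in that direction, with a median of 0.31. Egr1, a zinc finger factor, stood at 4589.6, 5365 and 3847 normalized counts with ETV6-NCOA2 and 2110.5, 1654 and 1769 with KAT6A-NCOA2 (log2 difference 1.31 ± 0.16 SE, limma adjusted p = 0.00222, at most 0.017). Its relative Egr3 stood at 78.4, 132 and 98.7 against 24.4, 14.7 and 26.9 (log2 difference 2.19 ± 0.45 SE, limma adjusted p = 0.0262, at most 0.124), while the third relative Egr2 had a log2 difference of -0.21 and did not pass. Fosb, an AP-1 subunit, stood at 428, 1447 and 667 against 231, 244 and 215 (log2 difference 1.69 ± 0.36 SE, limma adjusted p = 0.0302, at most 0.125), where ETV6-NCOA2 replicate 2 was above the other 2 by more than 2-fold. Ier2, an early response nuclear protein, stood at 1924, 1883 and 1742 against 1198, 1029 and 1104 (log2 difference 0.74 ± 0.09 SE, limma adjusted p = 0.00303, at most 0.0217), and Btg2 and Junb completed the 6. With the block 11 were past the test. The count was 10 and 1 in the 2 directions without empty vector replicate 2, and it fell to 2, 3 and 3 without KAT6A-NCOA2 replicate 2, KAT6A-NCOA2 replicate 3 and ETV6-NCOA2 replicate 2. Fos itself stood at 9125, 12224 and 9928 against 7715, 7872 and 8627 (limma adjusted p = 0.205).

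Among nuclear receptors and their targets, 3 of 25 were past the test, all higher with ETV6-NCOA2, while the list's median was 0.00 and 12 members had a higher mean with ETV6-NCOA2 against 13 with KAT6A-NCOA2. Pgr, the progesterone receptor (chromosome 9, 8899833 to 8968611), stood at 199.6, 189 and 239 normalized counts with ETV6-NCOA2 and 58.1, 31.5 and 43.2 with KAT6A-NCOA2 (log2 difference 2.25 ± 0.22 SE, limma adjusted p = 0.00062, at most 0.00524). Pgr in the empty vector libraries, at 100.4, 74 and 100.3, lay between the fusions. Greb1, an estrogen receptor target in breast cells, stood at 40.8, 28.7 and 28.8 against 11.2, 14.7 and 5.84 (log2 difference 1.61 ± 0.34 SE, limma adjusted p = 0.0305, at most 0.117), and Tgm2, a transglutaminase induced by retinoic acid, at 3379.5, 2619 and 2674 against 1998, 1869 and 1979 (log2 difference 0.56 ± 0.10 SE, limma adjusted p = 0.0163, at most 0.0865). Of 11 Notch pathway genes, Hes1, the repressor that Notch induces, stood at 295, 306 and 249.9 against 130.4, 91.5 and 76 (log2 difference 1.54 ± 0.18 SE, limma adjusted p = 0.00194, at most 0.0176), with 167, 158 and 193 in the empty vector libraries. The median of the Notch list was -0.03.

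Lymphoid genes differed singly. Of 7 tested NK and innate lymphoid genes, where Klrb1c and Eomes reached the filter of 10 through the ETV6-NCOA2 libraries alone and so had to differ, Nkg7, Klrb1c and Eomes were higher with ETV6-NCOA2. Nkg7, a granule membrane protein of killer cells and of some myeloid cells (chromosome 7, 43437073 to 43438249), stood at 563, 409.5 and 364 normalized counts with ETV6-NCOA2 and 45.8, 26.3 and 25.7 with KAT6A-NCOA2 (log2 difference 3.76 ± 0.26 SE, limma adjusted p = 0.000106, at most 0.0017). With empty vector Nkg7 stood at 524, 342 and 551, overlapping ETV6-NCOA2. Klrb1c, the NK1.1 receptor (chromosome 6, 128778485 to 128789215), stood at 87.8, 73.7 and 94.6 against 4.07, 6.31 and 4.67 (log2 difference 3.85 ± 0.51 SE, limma adjusted p = 0.00347, at most 0.0217), and at 0.96, 9.58 and 3.55 with empty vector, so that the ETV6-NCOA2 libraries alone were above 10. Eomes, a T-box factor of NK cells, stood at 23, 20.1 and 14.4 with ETV6-NCOA2, 2.04, 0 and 0 with KAT6A-NCOA2 and 3.82, 1.74 and 0.89 with empty vector (limma adjusted p = 0.00749), where the KAT6A-NCOA2 value rests on 2 reads in replicate 1. Id2, a factor of many cell types, Gzmb and the other 2 tested members were not past the test, and 11 of the 18 listed genes, Ncr1, Klrd1 and Gzma among them, were not tested.

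Of 22 T lymphoid genes 9 were tested, and none was past the limma test (median -0.03), where 2 had an unadjusted p below 0.05 (18.9% of all tested genes). No call was made by edgeR, limma-voom or DESeq2, and the other 13 listed genes, Cd3d, Cd3g, Trac and Rag1 among them, were not tested. Il7r, the IL-7 receptor, was the highest by mean, at 8295, 9085 and 9203 against 9958, 13365 and 12729 (limma adjusted p = 0.333, and 0.00748 with the block over the 6 fusion libraries). The T cell receptor genes Tcrg-C1, Trbv13-2 and Trbv12-2, outside the list and chosen after their values were seen, were past the test toward ETV6-NCOA2. Tcrg-C1, a constant segment of the gamma chain, stood at 204, 98.6 and 97.7 normalized counts with ETV6-NCOA2 and 29.5, 12.6 and 16.4 with KAT6A-NCOA2 (log2 difference 2.71 ± 0.37 SE, limma adjusted p = 0.00384, at most 0.024). Trbv13-2, a variable segment of the beta chain, stood at 56.4, 25.8 and 33.9 against 3.06, 3.15 and 10.5 (log2 difference 2.71 ± 0.43 SE, limma adjusted p = 0.00843, at most 0.0419). Trbv12-2, another variable segment, stood at 20.9, 14.3 and 10.3 against 1.02, 1.05 and 1.17, 1 read in each KAT6A-NCOA2 library. Empty vector libraries held 288, 240.3 and 469 for Tcrg-C1 and 47.8, 41.8 and 63 for Trbv13-2. With ETV6-NCOA2, Tcrg-C1 was below all of them and Trbv13-2 overlapped them. Of 16 B lymphoid genes 6 were tested and 0 were past the limma test (median -0.10), with 1 at an unadjusted p below 0.05 and 0 by edgeR, limma-voom and DESeq2.

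Of 15 erythroid genes 3 were higher with ETV6-NCOA2 and 1 higher with KAT6A-NCOA2, with a median of -0.11. Hbb-bt, an adult beta-globin gene, stood at 195, 163 and 131 normalized counts with ETV6-NCOA2 and 25.5, 19.97 and 17.5 with KAT6A-NCOA2 (log2 difference 2.89 ± 0.24 SE, limma adjusted p = 0.000321, at most 0.00413), and the share of its reads with the near-identical Hbb-bs depends on the authors' counting. Rhag, a red cell ammonium channel, stood at 69, 57.4 and 42.2 against 15.3, 10.5 and 14 (log2 difference 1.99 ± 0.25 SE, limma adjusted p = 0.00265, at most 0.0192), and Klf1, the erythroid Krüppel-like factor, at 43.9, 34.5 and 28.8 against 13.2, 7.36 and 12.9 (log2 difference 1.61 ± 0.34 SE, limma adjusted p = 0.028, at most 0.119). The gene higher with KAT6A-NCOA2 was Car2, a carbonic anhydrase, at 1098, 1156 and 986 against 1390.4, 1433 and 1317 (log2 difference -0.36 ± 0.08 SE, limma adjusted p = 0.0489, at most 0.188). Car1, its red cell relative, stood at 27.2, 17.2 and 11.3 against 42.8, 52.6 and 40.9 and was past the test with the block (limma adjusted p = 0.049 and 0.0618 without it). Of 11 genes of stroma and endothelium, Pdgfrb, a growth factor receptor of pericytes, was higher with ETV6-NCOA2 at 115, 138 and 126 against 27.5, 15.8 and 15.2 (log2 difference 2.68 ± 0.23 SE, limma adjusted p = 0.000321, at most 0.00413). The median of those 11 was -0.06. Tek, the angiopoietin receptor, was higher at 120.2, 101 and 126 against 53, 24.2 and 26.9 (log2 difference 1.79 ± 0.31 SE, limma adjusted p = 0.0123, at most 0.0659).

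Also among the 12 largest differences toward ETV6-NCOA2 under the naming rule were Plac8, Scin, Cd24a and Cd69. Plac8, a small protein of myeloid precursors, stood at 1135, 747 and 639.5 normalized counts with ETV6-NCOA2 and 162, 104 and 106 with KAT6A-NCOA2 (log2 difference 2.74 ± 0.26 SE, limma adjusted p = 0.00062, at most 0.00578). Scin, which cuts actin filaments, stood at 1517, 1142 and 1084 against 393, 212 and 202 (log2 difference 2.26 ± 0.33 SE, limma adjusted p = 0.0052, at most 0.0337). Cd24a, a surface protein of immature blood cells, stood at 786, 693 and 597 against 144, 167 and 141 (log2 difference 2.19 ± 0.19 SE, limma adjusted p = 0.000381, at most 0.00426). Cd69, an activation marker, had a log2 difference of 1.90 (limma adjusted p = 0.00456). The rule leaves out genes of low mean, where some differences were larger. Chosen after their values were seen, Emid1 stood at 198, 194 and 184 against 11.2, 5.26 and 9.35 (log2 difference 4.38 ± 0.30 SE, limma adjusted p = 0.000106, at most 0.0017) and Serpina3f, a serine protease inhibitor, at 433, 336 and 368 against 21.4, 22.1 and 21 (log2 difference 4.07 ± 0.28 SE, limma adjusted p = 0.000106, at most 0.0017). Itgb2l, an integrin beta chain, stood at 50.2, 19.1 and 13.4 with ETV6-NCOA2, at 2.87, 3.48 and 4.44 with empty vector and at 0 in all KAT6A-NCOA2 libraries. It too reached the filter through ETV6-NCOA2 alone, as did 8 of the 425 genes in all.

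Toward KAT6A-NCOA2 the differences past the test were fewer and smaller in the fit without the block, with 34 genes against 391. With the block over the 6 fusion libraries the counts were 944 and 1109. Slc6a4, the transporter that takes serotonin back up (chromosome 11, 76998603 to 77032340), stood at 1882, 1492 and 1376 normalized counts in KAT6A-NCOA2 replicates 1, 2 and 3 and at 627, 556 and 405 with ETV6-NCOA2 (log2 difference -1.59 ± 0.25 SE, limma adjusted p = 0.00843, at most 0.0371), a difference of 3.01-fold. Slc6a4 with empty vector stood at 1044, 640.0 and 1388, all above ETV6-NCOA2, with replicate 3 reaching the KAT6A-NCOA2 range. Serotonin synthesis and loading genes, Tph1 and Slc18a2 above, differed the other way. Parvb, parvin beta, which ties integrins to actin (chromosome 15, 84232043 to 84315688), stood, KAT6A-NCOA2 first from here, at 5465, 4726 and 4698 against 3679, 2873 and 2261 (log2 difference -0.78 ± 0.16 SE, limma adjusted p = 0.0234, at most 0.0842). Actn1, an alpha-actinin that crosslinks actin, stood at 4348, 4279.6 and 4527 against 3049, 3159.5 and 2875 (log2 difference -0.53 ± 0.11 SE, limma adjusted p = 0.0278, at most 0.124). In each of these genes no KAT6A-NCOA2 library overlapped ETV6-NCOA2. Vwf, the von Willebrand factor gene of platelets and endothelium, stood at 9259, 7419.7 and 8583 against 6291, 6138 and 5414 (log2 difference -0.50 ± 0.10 SE, limma adjusted p = 0.025, at most 0.112), and was the only 1 of 17 megakaryocyte and platelet genes past the test. Of those 17, 14 had a higher mean with KAT6A-NCOA2, with a median of -0.35, which was -0.10 without ETV6-NCOA2 replicate 3. No overlap in that direction was seen in 3 of the 17, against 12.8% of all tested genes. The list's mean log2 levels overlapped, at 11.83 to 12.29 with KAT6A-NCOA2 and 11.33 to 12.11 with ETV6-NCOA2. Hvcn1, a proton channel that phagocytes use, stood at 1802, 1719.8 and 1879 against 1291, 1243 and 1339.8 (log2 difference -0.48 ± 0.09 SE, limma adjusted p = 0.0161, at most 0.0826), and Slc44a1, a choline transporter, at 1693, 1482 and 1435 against 1093, 1195 and 1034 (log2 difference -0.47 ± 0.08 SE, limma adjusted p = 0.0114, at most 0.0463).

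The other 6 under the rule were Mfap3l, Tpm4 (a tropomyosin), Tubb2a (a beta-tubulin), Ppfibp1 (a liprin), Gas2l1 (a linker of actin and microtubules) and Ptprj (a receptor phosphatase), with log2 differences of -0.61, -0.45, -0.42, -0.42, -0.40 and -0.39. Their limma adjusted p lay between 0.0229 and 0.0452. Of the 12, Slc6a4 and Slc44a1 stayed past the test whichever library was left out. Among the 23 of the 34 whose empty vector mean was below both fusions were Actn1, at 2234, 3149 and 2404, and Vwf, at 4689, 5069 and 5489, in both of which 1 empty vector library overlapped ETV6-NCOA2. Chosen after its values were seen, Myl9, a myosin light chain of low level here, stood at 23.4, 31.5 and 16.4 with KAT6A-NCOA2 and 6.27, 4.78 and 2.06 with ETV6-NCOA2 (log2 difference -2.25 ± 0.51 SE, limma adjusted p = 0.0413, at most 0.181).

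Lists of lipid handling, metalloproteinases and matrix leaned toward KAT6A-NCOA2 with no single gene past the test in that direction. Of 23 genes of lipid and lysosome handling in macrophages, 21 had a higher mean with KAT6A-NCOA2 and 0 were past the limma test. Their median log2 difference was -0.22. In 12 of the 23 there was no overlap in that direction, against 12.8% of all tested genes. An unadjusted p below 0.05 was reached by 8 of the 23 (18.9% of all tested genes), edgeR and limma-voom called 0 and DESeq2 5. With the block 3 were past the test, Acp5, an acid phosphatase of osteoclasts and macrophages, at 2822, 2670.2 and 2325 normalized counts with KAT6A-NCOA2 and 1485, 1742 and 1622 with ETV6-NCOA2 (limma adjusted p = 0.0302), Ctsk (0.0389) and Tfec (0.0476), chosen after their values were seen. Spp1, osteopontin, stood at 567955, 753306 and 712820.0 with KAT6A-NCOA2 and 230628, 499367 and 485642 with ETV6-NCOA2, separate groups with a log2 difference of -0.82 (limma adjusted p = 0.442, 0.268 with the block). The empty vector libraries held 90893, 367273 and 150935, a spread of about 4-fold that enters the same fit. Without empty vector replicate 2, 5 of the 23 were past the test.

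Of 13 matrix metalloproteinases and inhibitors, 12 had a higher mean with KAT6A-NCOA2, with a median of -0.45. None was past the limma test (3 at an unadjusted p below 0.05, against 18.9% of all tested genes, and 0 by edgeR, limma-voom and DESeq2). Mmp12, the macrophage elastase, stood at 419540.0, 569522 and 510364 normalized counts with KAT6A-NCOA2 and 199718, 389647 and 350484 with ETV6-NCOA2 (limma adjusted p = 0.455). Of 22 matrix and adhesion genes, 16 had a higher mean with KAT6A-NCOA2, and the median of the list was -0.25. In 10 of the 22 there was no overlap in that direction, against 12.8% of all tested genes. But the 2 past the test, Tgm2 and Itga4, an integrin chain of immature cells (log2 difference 0.40 ± 0.08 SE, limma adjusted p = 0.0208, at most 0.104), were higher with ETV6-NCOA2. With the block Fn1, fibronectin, was past it toward KAT6A-NCOA2, at 20489.7, 29869 and 34099 against 3409, 17528 and 18417 (limma adjusted p = 0.0483 and 0.259 without it), together with Gpc1 and Sdc4, these 3 chosen after their values were seen. In Fn1, ETV6-NCOA2 replicate 1 lay far below the other libraries of its group.

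Of 21 macrophage identity genes 0 were past the limma test (3 at an unadjusted p below 0.05, against 18.9% of all tested genes, and 0 by the other 3 tools). Their mean log2 levels overlapped, at 11.36 to 11.55 with KAT6A-NCOA2 and 11.16 to 11.47 with ETV6-NCOA2. Mrc1, the mannose receptor, stood at 58874, 63581 and 69925 normalized counts with KAT6A-NCOA2 and 45949, 49469 and 62342 with ETV6-NCOA2, groups that overlap. Of 17 monocyte genes, Ly6c2, a marker of inflammatory monocytes, was higher with ETV6-NCOA2 at 317, 156 and 129 against 74.4, 53.6 and 29.2 (log2 difference 1.90 ± 0.37 SE, limma adjusted p = 0.0226, at most 0.0861). Ccr2, the receptor that draws such monocytes from marrow, stood at 1143, 1455 and 1206 against 1216, 1312 and 1083, groups that overlap (limma adjusted p = 0.86). With the block 3 monocyte genes were higher with ETV6-NCOA2. Of 23 dendritic cell and antigen presentation genes 0 were past the limma test (2 at an unadjusted p below 0.05, 1 by DESeq2, 0 by edgeR and limma-voom, and 1 in each direction with the block), and Cd74, the MHC class II chaperone, had a log2 difference of -0.02. The medians of the macrophage, monocyte and dendritic cell lists were -0.15, 0.01 and -0.115.

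**Figure D4:**
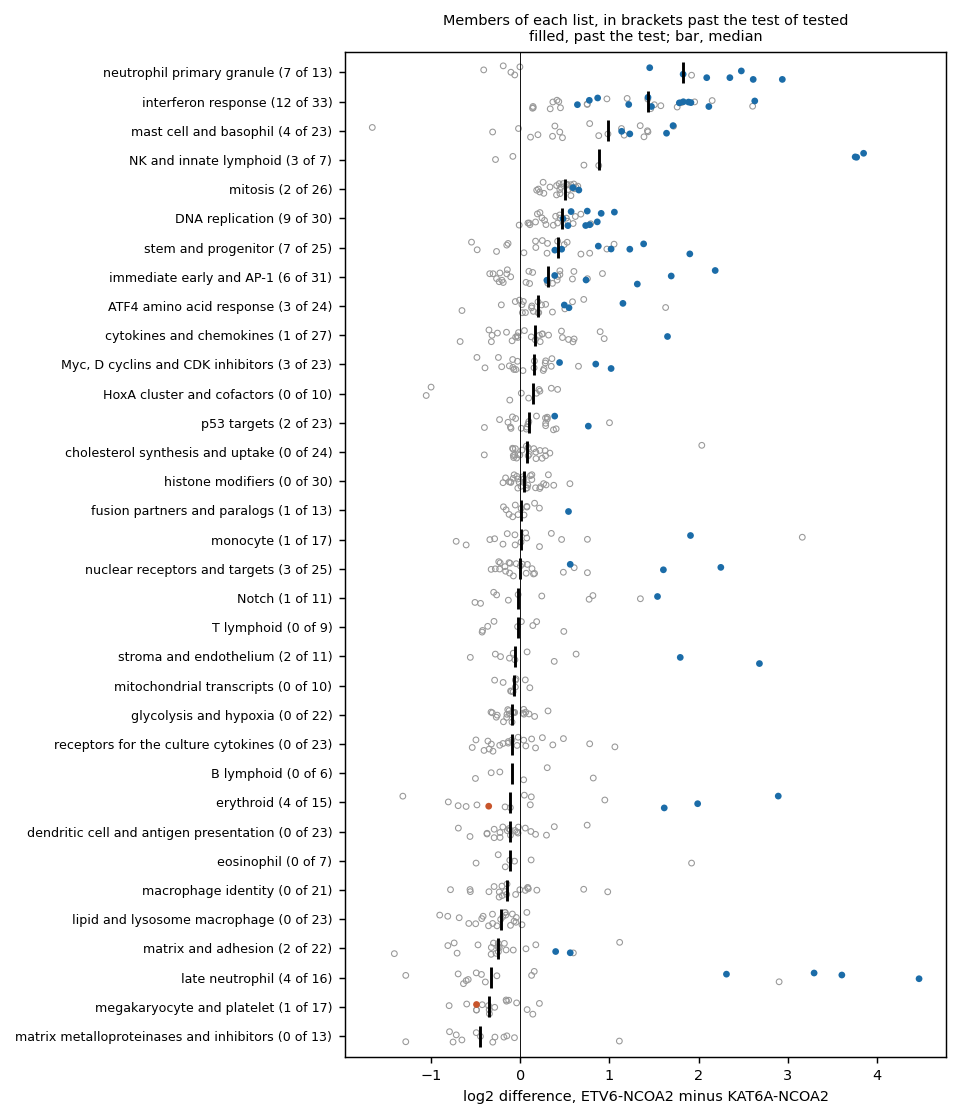
The log2 difference between ETV6-NCOA2 and KAT6A-NCOA2 of every tested member of 34 gene lists, ordered by median (black bar), with members past the test filled, blue for ETV6-NCOA2 higher and orange for KAT6A-NCOA2 higher. Medians run from 1.83 for neutrophil primary granules to -0.45 for matrix metalloproteinases, and 2 of the filled points, Vwf and Car2, are orange.

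Of the 34 lists, which hold 617 tested genes, 73 genes were past the test, 71 of them toward ETV6-NCOA2. Of all tested genes 3.09% were past the test. In the cytokine and chemokine list of 27, Il6 alone was past it, and in the list of 13 fusion partners and their paralogs Etv6 alone, with medians of 0.17 and 0.01. With the block 4 of the 27 cytokine genes were higher with ETV6-NCOA2 and 1 with KAT6A-NCOA2. Without the block no gene was past the limma test among 7 of eosinophils, 23 receptors for the culture cytokines, 24 of cholesterol synthesis and uptake, 30 histone modifiers, 10 mitochondrial transcripts and 22 of glycolysis and hypoxia. In these 6 lists an unadjusted p below 0.05 was reached by 1, 9, 2, 6, 0 and 3 genes in that order, DESeq2 called 1, 3, 2, 0, 0 and 0, and edgeR and limma-voom called none. Of all tested genes 18.9% had an unadjusted limma p below 0.05, and DESeq2 called 5.77%. With the block 1, 2, 1, 1, 0 and 0 of them were higher with ETV6-NCOA2 and 0, 2, 1, 0, 0 and 0 higher with KAT6A-NCOA2. Their medians lay between -0.12 and 0.08. Ear2, an eosinophil ribonuclease, stood at 560.1, 623 and 568 normalized counts with ETV6-NCOA2 and 1199, 744 and 625 with KAT6A-NCOA2. Csf2rb, the shared chain of the IL-3 receptor, stood at 21172, 24362 and 25429 against 28242, 32372 and 33521, higher in all KAT6A-NCOA2 libraries but not past the test (limma adjusted p = 0.109, 0.0786 with the block and 0.0124 with the block over the 6 fusion libraries).

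The medians of 12 of the 34 lists changed sign under at least 1 alternative: late neutrophil, eosinophil, erythroid, monocyte, dendritic cell, cholesterol, nuclear receptor, fusion partner, T lymphoid, B lymphoid, Notch and stroma.

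The number of genes past the test depended on which libraries entered the fit and on the pairing, while the direction of the imbalance did not. In each of 22 alternative settings more genes were higher with ETV6-NCOA2 than with KAT6A-NCOA2. The split came closest to even with the block over the 6 fusion libraries alone, at 1109 and 944. Without KAT6A-NCOA2 replicate 2 the counts were 159 and 4, and without empty vector replicate 2 they were 677 and 236. Of the 425 genes, 131 stayed past the test whichever library was left out, 129 of the 391 and 2 of the 34. With edgeR 376 of the 425 were past it, and with DESeq2 422.

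**Figure D5:**
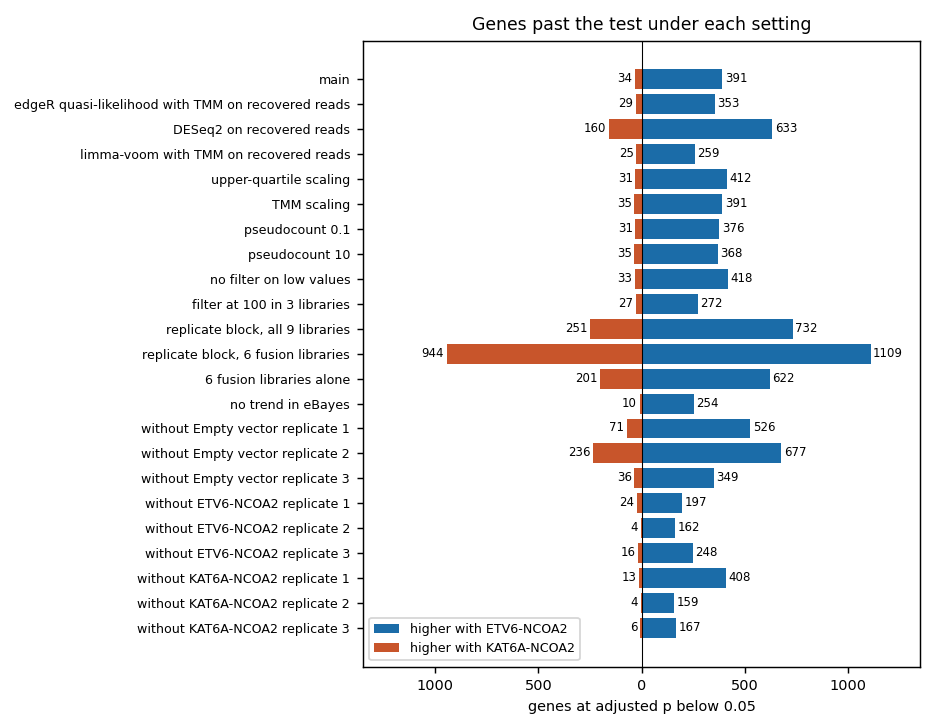
Genes past an adjusted p of 0.05 under the reported fit (top) and 22 alternatives, with blue bars to the right for genes higher with ETV6-NCOA2 and orange bars to the left for genes higher with KAT6A-NCOA2. Blue exceeds orange in every row, with 391 and 34 at the top and 1109 and 944 at the widest.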

How the data were processed

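Values were the authors' deposited normalized counts, used here as a signal scale, for 17266 genes in 9 libraries. Per the submitters' processing notes, reads were handled with cutadapt, STAR 2.4.2a, HTSeq and DESeq2 on GRCm38; order and settings are not given in the sources used here. In each library 100% of values were whole multiples of 1 step within 0.01, which gave back reads. Kept were genes that reached 10 in 3 libraries. limma 3.58.1 (R 4.3.3) was fitted to log2(value + 1) of all 9 libraries with 1 mean per group and a mean-variance trend, with Benjamini-Hochberg adjustment over 13750 genes and a threshold of 0.05. Log2 differences understate changes of low genes. Alternatives were edgeR 4.0.16 (382 genes called), DESeq2 1.42.0 and limma-voom on the recovered reads, other scalings, pseudocounts and filters, the replicate block, and leaving out each library. The limma step was tested on simulated data.

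The labels number the replicates 1 to 3 in each group. Deviations from the group means correlated at 0.301, 0.199 and 0.295 between same-numbered libraries of the 2 fusions and at -0.309 to 0.0418 between others, so the numbers were taken as pairs. Such deviations cancel out within a group, so positive same-numbered values push the others down. The contrast between these ranges is therefore no independent evidence of pairing.

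Named genes are Etv6, Kat6a and Ncoa2, the 12 largest differences in each direction among called genes of above-median mean without overlap, and up to 4 called members of each list with the largest difference, or, where a list has none, its member of highest mean. Of these, 1 of the largest is not reported here. Kit, Cd34, Flt3 and Ly6a, outside this rule, were planned as markers of the starting cells. Named outside this rule, after their values were seen, are Acp5, Angpt1, Anxa1, Car1, Ccr2, Cebpe, Chil3, Cpa3, Ctsc, Ctsk, Egr2, Emid1, Fn1, Fos, Gbp2, Gbp7, Gfi1, Gpc1, Hhex, Hoxa9, Igsf6, Irf7, Isg15, Isg20, Itgb2l, Junb, Lmo2, Ltb4r1, Lyz1, Lyz2, Mcpt8, Mx1, Myl9, Rsad2, Sdc4, Serpina3f, Serpinb1a, Srgn, Tcrg-C1, Tfec, Trbv12-2 and Trbv13-2. The comparison and the gene lists were chosen with earlier results of these data known. Gene positions are from GENCODE M21 on GRCm38, matched by symbol for 97% of genes, and promoters from RefSeq. Depth intervals would cover counting error only and are not given, since groups have replicates.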

Additional observations from a re-analysis of the deposited data

How the results depend on the processing

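No gene past the test and no imbalance of the counts changed direction under the alternatives run, but the medians of 12 of the 34 lists did under at least 1, the farthest being late neutrophil (-0.33 to 0.13, filter at 100), B lymphoid (-0.10 to 0.30, no filter) and stroma (-0.06 to 0.24, without KAT6A-NCOA2 replicate 3). The count of 425 genes past the test (391 higher with ETV6-NCOA2, 34 higher with KAT6A-NCOA2) became 793 with DESeq2 (633 and 160), 823 with the 6 fusion libraries alone (622 and 201) and 264 without the mean-variance trend (254 and 10). With limma-voom 259 genes were higher with ETV6-NCOA2. With the replicate block it became 983 over 9 libraries (732 and 251) and 2053 over the 6 fusion libraries (1109 and 944). The block over 9 libraries changed no call among the genes chosen by the naming rule; over the 6 fusion libraries it added Csf2rb, Il7r and Blnk. All 70 named genes past the test were past it with the block over 9 libraries. Leaving out 1 library gave 163 to 913 genes in all, 159 to 677 higher with ETV6-NCOA2 and 4 to 236 higher with KAT6A-NCOA2. The count of 225 genes with at least a 2-fold difference became 124 with the filter at 100, 361 with the replicate block over the 6 fusion libraries and 128 to 292 on leaving out 1 library. Fewer samples or genes entered these fits; otherwise the cause was not tested. Of the 70 named genes past the test, 40 lost the call without at least 1 library, and 12 of the 119 named genes and lists fell below the threshold or by over 1.5 times with edgeR and 30 with limma-voom. Another scaling or filter moved the median difference of all genes by at most 0.02. Genes near the filter rest on few reads, as the KAT6A-NCOA2 values of Eomes, Itgb2l and Klrb1c show.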
